A study of Mus musculus with 12 samples.

Results

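The genes described here are the 10 that carry antigen presentation by the major histocompatibility complex (MHC) in this dataset: the class I heavy chains H2-K1 and H2-D1, their light chain B2m, the peptide transporter subunits Tap1 and Tap2, the class I transactivator Nlrc5, the immunoproteasome subunits Psmb8 and Psmb9, and, for class II, the alpha chain H2-Aa and the invariant chain Cd74. They were taken by symbol from a table of 27179 genes, and all 10 had a row and passed the filter on low counts, which kept 13134 genes. The class I side has 8 members and class II has 2.

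RNA-seq was done on T-ALL cells (T-ALL is acute lymphoblastic leukemia of the T lineage) from the mouse primary leukemia ALL101, whose genotype is Vav-tTA;TRE-GFP-shIkaros. In this system the tetracycline transactivator tTA, driven by the blood-cell promoter Vav, switches on a GFP-linked hairpin against Ikaros (gene Ikzf1), and doxycycline (Dox) switches it off. Both groups carry every allele. Cells were sorted from the spleens of recipient mice, GFPhigh cells from 3 untreated mice and GFPmid cells from 3 mice given Dox for 3 days, and the 2 runs made from each RNA were summed per mouse here. Treatment and GFP gate therefore cannot be told apart. The samples come from a single primary leukemia, and no hairpin-free leukemia given Dox was analysed here, so hairpin shut-off and other actions of Dox cannot be told apart either. The names of the libraries of untreated mouse 3 lack the sort tag that the other 5 mice's libraries carry.

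Totals ran from 29904744 to 44949303 counts per mouse, so that 3 counts, the limit that a count of 0 allows, correspond to between 0.0666 and 0.101 CPM (counts scaled to the library total). Ikzf1 itself lay between 149.7 and 158.6 CPM in the untreated mice and between 1438 and 1523 CPM in the Dox mice, in the direction the labels give. The T-cell receptor chains Cd3d and Cd3e were at 305.8 CPM or above in all 6 mice. Cd3g was at 369.8 CPM or above in all 6, and was lower after Dox (log2 -0.45 ± 0.07, edgeR adjusted p = 0.00094). The B-cell factor Pax5 and the kinase Blk had 0 counts in all 6 mice. Over the whole table, 6571 of the 13134 tested genes (50.0%) passed an adjusted p of 0.05 in edgeR's quasi-likelihood test with Benjamini-Hochberg adjustment, 24.8% of them higher and 25.2% lower after Dox, as shares of all tested genes.

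Class I molecules sit on almost every nucleated cell and show peptides made inside it to CD8 T cells. The proteasome cuts the peptides, the transporter TAP carries them into the endoplasmic reticulum, and tapasin and chaperones load them onto a heavy chain bound to B2m. Class II molecules show peptides from endosomes to CD4 T cells, are loaded with help from Cd74 and the H2-DM chaperone, and in mice are made mainly by B cells, macrophages, dendritic cells and thymic epithelium, with little in mouse T cells. NLRC5 and CIITA are related transactivators, NLRC5 for class I genes and CIITA for class II genes, and both act through the RFX, CREB and NF-Y factors bound at the SXY promoter module. In developing thymocytes class I is low at the CD4 and CD8 double-positive stage and higher afterwards.

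The sequences upstream of the members give context for the values below, and no result here links them to a change. RefSeq windows on GRCm38.p6 were matched for 7 of the 10 members, while Tap2, Nlrc5 and Cd74 had no entry. Capitals mark matches on either strand to GGGANNCCC (the kappa B pattern), GAANNGAA (interferon regulatory factor pattern), TGACG (core of the X2 box), TGATTGG (Y box) or TGGGAA (Ikaros core), and each line runs 5′ to 3′ on the gene's strand and ends at the base before the start of transcription. Shown are the opposed pair of class I chains, the 225 bases that separate the head-to-head genes Psmb9 and Tap1 (read on the strand of Tap1), and the class II chain.
H2-K1, chr17:34000348-34000597, minus strand: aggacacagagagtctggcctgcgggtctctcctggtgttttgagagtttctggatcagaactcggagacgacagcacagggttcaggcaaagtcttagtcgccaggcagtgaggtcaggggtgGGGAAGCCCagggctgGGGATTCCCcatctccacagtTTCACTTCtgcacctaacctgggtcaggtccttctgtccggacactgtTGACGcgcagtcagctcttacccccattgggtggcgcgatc
H2-D1, chr17:35262844-35263093, plus strand: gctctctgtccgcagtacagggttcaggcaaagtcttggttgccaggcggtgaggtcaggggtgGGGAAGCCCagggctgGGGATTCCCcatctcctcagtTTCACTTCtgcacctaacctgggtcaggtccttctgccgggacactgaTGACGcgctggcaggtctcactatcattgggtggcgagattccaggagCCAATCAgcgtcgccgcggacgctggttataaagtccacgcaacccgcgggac
Psmb9 to Tap1, chr17:34187331-34187555, plus strand: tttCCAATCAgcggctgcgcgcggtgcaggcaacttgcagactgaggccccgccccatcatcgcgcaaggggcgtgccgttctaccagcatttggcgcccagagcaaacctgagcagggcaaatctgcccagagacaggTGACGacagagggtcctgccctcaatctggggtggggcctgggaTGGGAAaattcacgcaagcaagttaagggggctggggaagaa
H2-Aa, chr17:34287824-34288073, minus strand: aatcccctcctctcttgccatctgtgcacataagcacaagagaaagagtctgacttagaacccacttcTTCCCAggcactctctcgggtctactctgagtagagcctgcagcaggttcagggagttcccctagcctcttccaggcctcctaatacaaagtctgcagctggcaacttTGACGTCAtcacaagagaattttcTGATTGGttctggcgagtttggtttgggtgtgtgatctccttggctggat

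The H2-K1 and H2-D1 windows are close copies: 167 of 190 aligned base pairs (87.9%) were identical. Both hold 2 kappa B matches, 1 interferon regulatory factor match and 1 X2 match in the same order. Neither held the Ikaros core. The H2-D1 window also held a Y-box match, downstream of its X2 core by more than the H2-K1 window shown extends past its own. The window of the other H2-K1 start site, which ends 14 bases further downstream, covers that spacing and held 0 Y-box matches. RefSeq gives H2-K1 a pair of start sites 14 bases apart, of which the more upstream was used for the sequence shown. The H2-K1 gene span given below ends at 34000619, so this window lies inside that span. It is upstream of these start sites but not of the whole annotated gene. The H2-Aa window held 1 Ikaros core, then an X2 core on each strand, overlapping as TGACGTCA, then a Y box. In the Psmb9 to Tap1 interval there was 1 match each to the X2 core, the Y box and the Ikaros core, shared by both genes. Over 32851 RefSeq windows of 250 upstream bases, GGGANNCCC occurred in 4.76%, GAANNGAA in 17.2%, TGACG in 17.8%, TGATTGG in 7.23% and TGGGAA in 21.6%. These are letter matches and nothing here measured binding.

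The members did not move together between the groups. Of the 10, 3 rose (H2-D1, Tap1 and Nlrc5), 2 fell (H2-K1 and H2-Aa), and 5 (B2m, Tap2, Psmb8, Psmb9 and Cd74) did not pass. The share that passed, 5 of 10, equals the 50.0% of all tested genes, of which 24.8% were higher and 25.2% lower as shares of all tested genes. The median log2 fold change of the members was 0.03 against -0.0037 for all tested genes. The 3 untreated and 3 Dox values did not overlap for the same 5 members that passed, against 61.2% of tested genes. All 8 class I members together had 3 higher, 1 lower and 4 not passed, and the class II pair had 0 higher, 1 lower and 1 not passed.

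**Figure D1:**
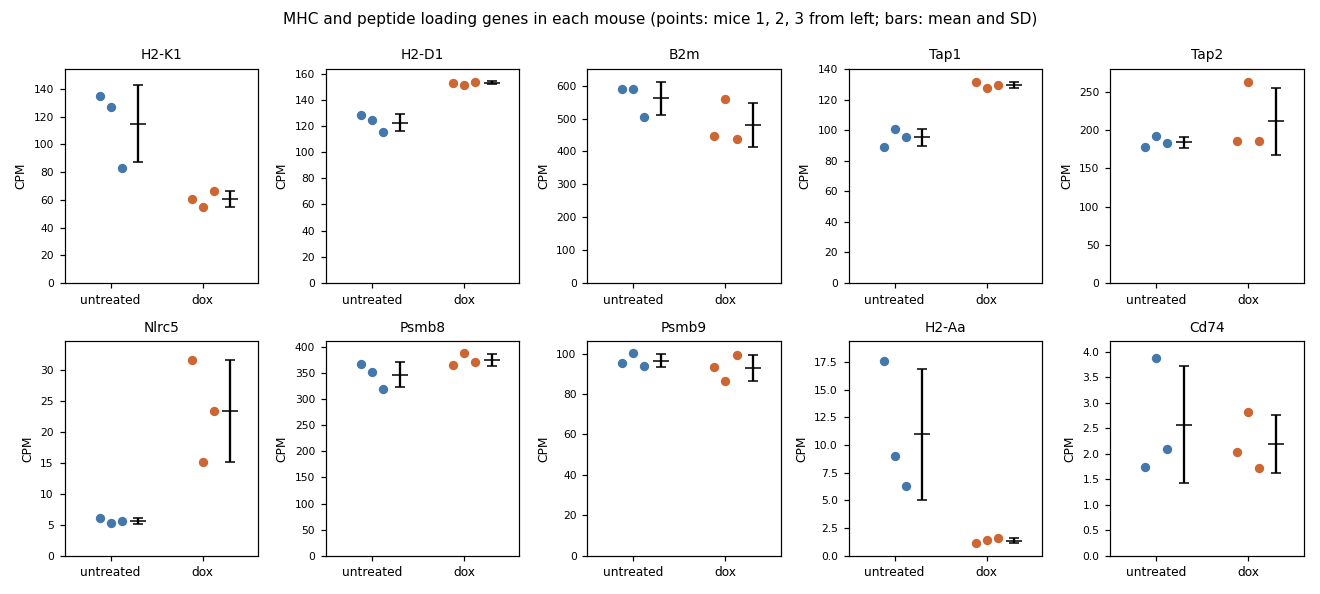
Level of each of the 10 genes in CPM (linear axis from 0) in every mouse, untreated in blue and Dox in orange, with the mean and SD of 3 mice beside the points. H2-K1 and H2-Aa lie lower and H2-D1, Tap1 and Nlrc5 higher in all 3 Dox mice, whereas B2m, Tap2, Psmb8, Psmb9 and Cd74 overlap.

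H2-K1 encodes the K heavy chain of the classical class I molecules (Entrez 14972, GRCm38 chromosome 17, 33996012 to 34000619). In untreated mice 1, 2 and 3 it stood at 135, 127 and 83.1 CPM, and in Dox mice 1, 2 and 3 at 60.7, 54.8 and 66.1 CPM. Every Dox mouse lay below every untreated mouse, and untreated mouse 3 was the lowest of its group. The mean fell from 115 ± 27.9 to 60.5 ± 5.68 CPM (SD, n = 3 each), a log2 fold change of -0.93 ± 0.18 (SE) with an edgeR adjusted p of 0.006.

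H2-D1, the D heavy chain (Entrez 14964, chromosome 17, 35263094 to 35267497), went the other way. Its values were 128, 124 and 115 CPM in the untreated and 153, 152 and 154 CPM in the Dox mice. All 3 Dox mice stood above all 3 untreated mice, and they lay closer to each other than the untreated mice did. The rise was small, 1.25-fold (log2 0.32 ± 0.06, edgeR adjusted p = 0.0038). H2-K1 and H2-D1 started near the same level per kilobase of gene length, at 69.9 ± 16.96 and 70.6 ± 3.81 CPM per kilobase, and after Dox stood at 36.8 ± 3.45 and 88.1 ± 0.664 (SD, n = 3). The ratio of H2-K1 to H2-D1, both per kilobase, was 1.11, 1.08 and 0.760 in untreated mice 1 to 3 and 0.418, 0.381 and 0.453 in Dox mice 1 to 3. The ratios did not overlap. Their difference on the log2 scale, a description without a test because the members were chosen with results known, was -1.22. Summed, the pair gave 156, 149 and 117 CPM per kilobase in the untreated and 125, 121 and 129 in the Dox mice, so the sum overlapped between groups while its composition did not.

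How far reads could pass between near-identical class I genes was read from GENCODE M21 transcripts, since the handling of multiply matching reads is not given in the sources used here. Of the 50-base stretches of H2-K1 transcripts, 9.63% also occurred in another gene, most often H2-Q10, and of the 100-base stretches 0.957%. For H2-D1 the shares were 12.8% and 3.59%, most often with H2-Q1. H2-Q10 itself stood at 15.5 to 18.8 CPM in the untreated and 16.7 to 21.1 CPM in the Dox mice, and H2-Q1 at 264 to 288 and 264 to 394 CPM. Neither passed the test. The class I haplotype of the leukemia is not given in the sources used here, and its effect on counts against the reference was not tested.

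B2m, the invariant light chain that every class I heavy chain needs to reach the surface (Entrez 12010, chromosome 2, 122147687 to 122153082), had the highest level per kilobase of the members. It measured 591, 589 and 504 CPM in the untreated and 447, 559 and 437 CPM in the Dox mice. Dox mouse 2 lay above untreated mouse 3, so the groups overlapped. The log2 fold change was -0.22 ± 0.11 and did not pass (edgeR adjusted p = 0.12). Without Dox mouse 2 it was -0.33 with an adjusted p of 0.013, and without both Dox mouse 2 and untreated mouse 3 it was -0.41 with an adjusted p of 0.0013, so that 1 mouse sets the call. Against B2m, H2-K1 per kilobase gave ratios of 0.119, 0.112 and 0.0859 in the untreated and 0.0708, 0.0511 and 0.0788 in the Dox mice, and H2-D1 gave 0.107, 0.104 and 0.113 and then 0.170, 0.134 and 0.174. Neither ratio overlapped between groups, and they moved in opposite directions, by -0.67 and 0.55 on the log2 scale.

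The wider class I heavy chain family also held genes of both directions. Its list includes genes that RefSeq gives as transcribed pseudogenes, among them H2-T10, H2-Bl and Cd1d2. Of 25 listed genes 21 had a row and 20 were tested, of which 7 rose, 4 fell and 9 did not pass, a share near the 50.0% of all tested genes, with a median log2 fold change of 0.10. The 4 genes with the smallest p were all higher after Dox. H2-T23, which encodes the Qa-1 molecule that presents to NK-cell receptors, rose 1.86-fold, from 41.6 ± 1.83 to 77.5 ± 6.72 CPM (log2 0.90 ± 0.08, edgeR adjusted p = 0.00013). H2-Q2 rose from 193 ± 3.00 to 284 ± 23.4 CPM (log2 0.55 ± 0.07, adjusted p = 0.00062). Cd1d1, which encodes a lipid-presenting class I-like chain, and the pseudogene Cd1d2 rose by log2 1.14 ± 0.14 and 2.04 ± 0.22 (edgeR adjusted p = 0.00036 and 0.00026). Cd1d1 rose to between 30.7 and 44.0 CPM and Cd1d2 to between 4.67 and 7.08 CPM. These last 2 share 19.1% and 31.1% of their 50-base stretches with each other.

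Besides H2-K1 the genes of the heavy chain list that fell were H2-T3, H2-T22 and the transcribed pseudogene H2-Bl. They were named here after their values were seen. H2-T3, the gene of the thymus leukemia antigen TL, stood at 674, 749 and 762 in the untreated and 281, 481 and 324 CPM in the Dox mice (log2 -1.01 ± 0.20, edgeR adjusted p = 0.0063). The groups did not overlap, and Dox mouse 2 was the highest of its group, as it was for B2m. H2-Bl had log2 -0.89 ± 0.15 (adjusted p = 0.0024) and H2-T22 log2 -0.55 ± 0.17 (adjusted p = 0.033). H2-T22 shares 34.5% of its 50-base stretches with other genes, mostly H2-T10, and H2-T10 itself had log2 -0.39 and did not pass (adjusted p = 0.22). H2-T3 shares 0.894%. The count of 4 lower genes in this list was 3 without untreated mouse 2, untreated mouse 3, Dox mouse 1 or Dox mouse 3 and with no filter on low counts. It was 5 without Dox mouse 2, and the count of 7 higher genes ran from 6 to 8 over the alternatives.

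Nlrc5, the class I transactivator (Entrez 434341, chromosome 8, 94434335 to 94527272), had the largest rise among the 10. Its level was 6.07, 5.24 and 5.55 CPM in the untreated and 31.7, 15.2 and 23.3 CPM in the Dox mice. The lowest Dox mouse, mouse 2, was above all untreated mice. The mean rose 4.17-fold, from 5.62 ± 0.419 to 23.4 ± 8.23 CPM (log2 2.06 ± 0.26, edgeR adjusted p = 0.00081). No 50-base stretch of its transcripts occurred in another gene. Per kilobase it remained among the low members, at 0.810 before and 3.37 CPM per kilobase after Dox.

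The order of the Dox mice in Nlrc5 (mouse 1, then 3, then 2) recurred in Irf9, a subunit of the interferon-activated factor ISGF3. Irf9 rose by log2 0.97 ± 0.14 (edgeR adjusted p = 0.0011) from 27.3, 30.1 and 29.0 CPM in the untreated to 69.1, 45.7 and 55.0 CPM in the Dox mice. It was named after its values were seen, and an order over 3 mice carries no test. Of 11 listed genes for interferon receptors and signalling, 11 rose, against 24.8% of all tested genes, and their median on the log2 scale was 0.64. The kinase Jak2 rose by 1.16 ± 0.09 and the interferon gamma receptor chain Ifngr1 by 1.11 ± 0.09 on the log2 scale (edgeR adjusted p = 6.9e-05 and 7.8e-05). Tyk2 and the type I receptor chain Ifnar1 rose by 0.70 and 0.64 (adjusted p = 0.0004 and 0.00049). The count of 11 became 10 under the block on mouse number and without 4 of the mice taken singly.

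Among 13 transcription factors of MHC genes, Nlrc5 included, 7 rose, 1 fell and 5 did not pass, beside 24.8% higher and 25.2% lower over all tested genes. Rfx5, the DNA-binding subunit of the RFX complex, rose from 15.9 ± 1.70 to 26.2 ± 3.41 CPM (log2 0.72 ± 0.13, edgeR adjusted p = 0.0019), and its partner Rfxank by log2 0.51 ± 0.12 (adjusted p = 0.0089), while Rfxap had log2 0.06 (adjusted p = 0.62). Irf2 rose by 0.51 ± 0.08 and the NF-kappa B subunit Rela by 0.32 ± 0.07 (edgeR adjusted p = 0.001 and 0.0066). Nfyb rose and Nfya fell, by 0.28 and by 0.25 on the log2 scale, and the count of 1 lower factor was 0 without untreated mouse 1, untreated mouse 2, Dox mouse 2 or Dox mouse 3. Irf1, the interferon-induced activator of class I promoters, lay at 85.8 to 105 CPM and 99.3 to 109 CPM and did not pass (adjusted p = 0.24). Ciita, the transactivator of class II, was close to the detection limit in both groups, at 0.0333 to 0.335 CPM in the untreated and 0.265 to 0.333 CPM in the Dox mice (1 to 10 and 9 to 15 counts, log2 0.59 ± 0.57, adjusted p = 0.41).

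Of the 2 subunits of the peptide transporter, Tap1 passed the test and Tap2 did not. Tap1 (Entrez 21354, chromosome 17, 34187556 to 34197225) measured 89.4, 100.9 and 96.0 CPM in the untreated and 132, 128 and 130 CPM in the Dox mice. All Dox mice lay above all untreated mice, with a 1.36-fold higher mean (log2 0.44 ± 0.07, edgeR adjusted p = 0.0011). Tap2 (Entrez 21355, chromosome 17, 34204479 to 34216321) measured 178, 192 and 183 CPM and then 186, 262 and 186 CPM. Dox mice 1 and 3 lay within the untreated range and only Dox mouse 2 lay above it, and the log2 fold change of 0.20 ± 0.13 did not pass (adjusted p = 0.25). Per kilobase, the ratio of Tap1 to Tap2 was 0.425, 0.443 and 0.444 in the untreated and 0.597, 0.411 and 0.588 in the Dox mice. The ratios overlapped through Dox mouse 2, and the log2 difference of 0.26 became 0.44 without that mouse.

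Of the 9 listed loading genes 3 rose, 2 fell and 4 did not pass, a share near the 50.0% of all tested genes. Tapbp, which encodes tapasin, the bridge between TAP and the heavy chain, rose from 56.9 ± 2.70 to 93.7 ± 6.46 CPM (log2 0.72 ± 0.08, edgeR adjusted p = 0.00025). Its relative Tapbpl, a peptide editor, rose from 69.8 ± 3.90 to 107 ± 8.41 CPM (log2 0.62 ± 0.08, adjusted p = 0.00055). The chaperone calnexin, Canx, fell from 733 ± 48.8 to 557 ± 58.6 CPM (log2 -0.40 ± 0.09, adjusted p = 0.0074), and calreticulin, Calr, had log2 -0.24 ± 0.08 (adjusted p = 0.039). Calr lost its call under several alternatives, which left 1 lower gene, among them the block and leaving out untreated mouse 1, untreated mouse 2 or Dox mouse 1. The disulfide isomerase Pdia3 and the trimming peptidase Erap1 had log2 -0.07 and -0.06 and did not pass.

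**Figure D2:**
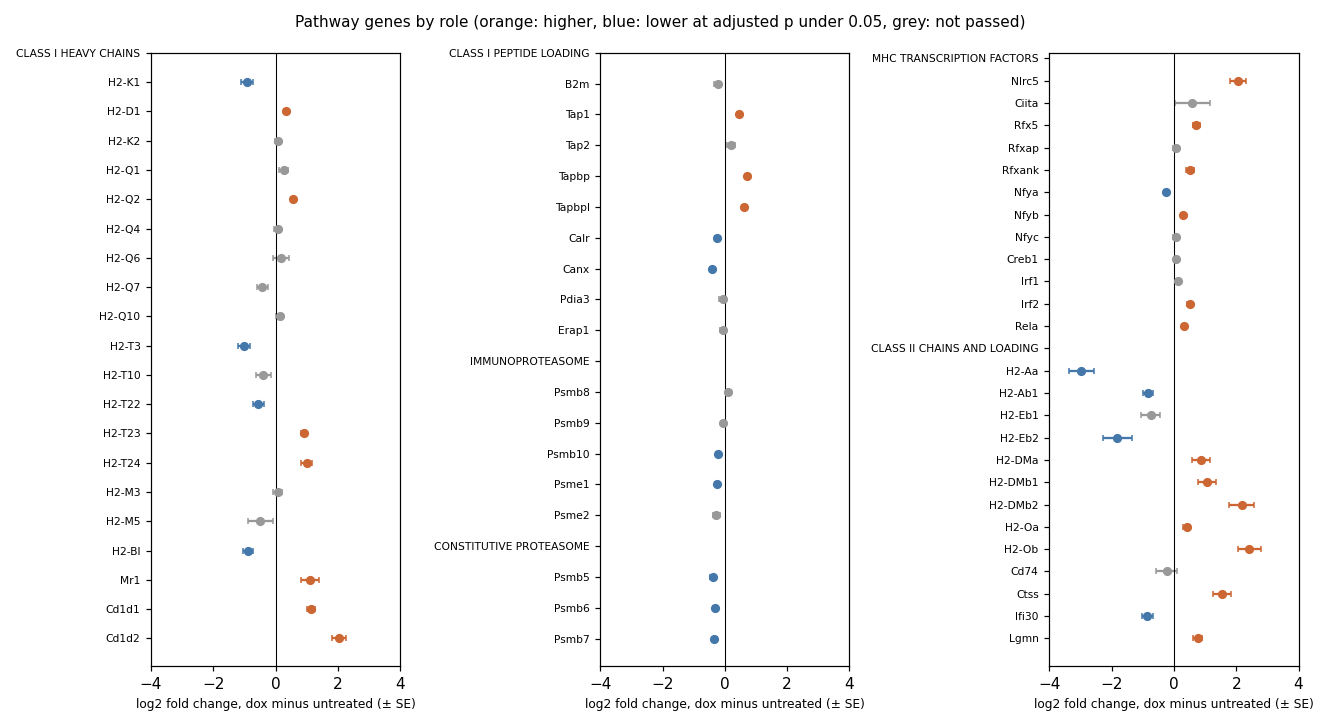
Log2 fold change (Dox minus untreated, with SE) of tested genes of the class I, proteasome, transcription factor and class II lists, coloured by direction where the edgeR adjusted p was under 0.05. Nlrc5 at 2.06 and H2-Aa at -2.98 are the extremes among the 10 members, and the immunoproteasome genes lie between -0.28 (Psme2) and 0.11 (Psmb8).

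Psmb8 and Psmb9 encode the beta 5i and beta 1i catalytic subunits, which replace Psmb5 and Psmb6 in the immunoproteasome and favour peptide ends that fit class I. Psmb8 (Entrez 16913, chromosome 17, 34198195 to 34201454) stood at 367, 353 and 320 CPM in the untreated and 366, 388 and 370 CPM in the Dox mice (log2 0.11 ± 0.07, edgeR adjusted p = 0.22). Psmb9 (Entrez 16912, chromosome 17, 34182030 to 34187330) stood at 95.1, 100 and 94.0 CPM and at 93.2, 86.4 and 99.3 CPM (log2 -0.05 ± 0.07, adjusted p = 0.56). Both overlapped between the groups. Psmb9, Tap1, Psmb8 and Tap2 lie together within 34292 bases of chromosome 17, and Tap1 was the sole gene of these 4 that passed, although Psmb9 starts 225 bases from it on the other strand.

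The constitutive counterparts fell. Psmb5, Psmb6 and Psmb7 had log2 fold changes of -0.39 ± 0.08, -0.33 ± 0.07 and -0.34 ± 0.07 (edgeR adjusted p = 0.0044, 0.0043 and 0.0053), and their Dox values lay below their untreated values in all mice. The thymic subunit gene Psmb11 was at or below 0.294 CPM in all mice and was not tested. The ratio of Psmb8 to Psmb5 per kilobase was therefore 3.96, 3.698 and 3.23 in the untreated and 5.44, 5.30 and 4.67 in the Dox mice, which did not overlap (log2 difference 0.50). For Psmb9 to Psmb6 the ratios were 0.748, 0.759 and 0.746 and then 0.980, 0.819 and 0.933 (0.27 on the log2 scale). For the beta 2 pair, Psmb10 to Psmb7, they were 0.351, 0.385 and 0.380 and then 0.407, 0.409 and 0.401 (0.13 on the log2 scale). In each pair every Dox mouse was above every untreated mouse, with the immunosubunit level near or below its untreated level and the constitutive level lower.

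Other proteasome subunits were lower too. Of 28 listed core and cap genes 0 rose, 17 fell and 11 did not pass, with a median log2 fold change of -0.24, against 25.2% of all tested genes lower. The cap subunits Psmd7, Psmd2 and Psmd1 fell by 0.60, 0.33 and 0.41 and the core subunit Psma5 by 0.48 on the log2 scale (edgeR adjusted p = 0.00052, 0.0045, 0.0047 and 0.0032). The count of 17 was 10 without untreated mouse 1, 12 without untreated mouse 2, Dox mouse 1 or Dox mouse 2, and 19 without untreated mouse 3. Of the 5 immunoproteasome genes 0 rose, 2 fell (Psmb10 by 0.21 and the activator subunit Psme1 by 0.25, adjusted p = 0.028 and 0.016) and 3 did not pass. That count of 2 was 0 without untreated mouse 1 or untreated mouse 2, 1 without Dox mouse 1 or Dox mouse 2, and 3 without untreated mouse 3.

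**Figure D3:**
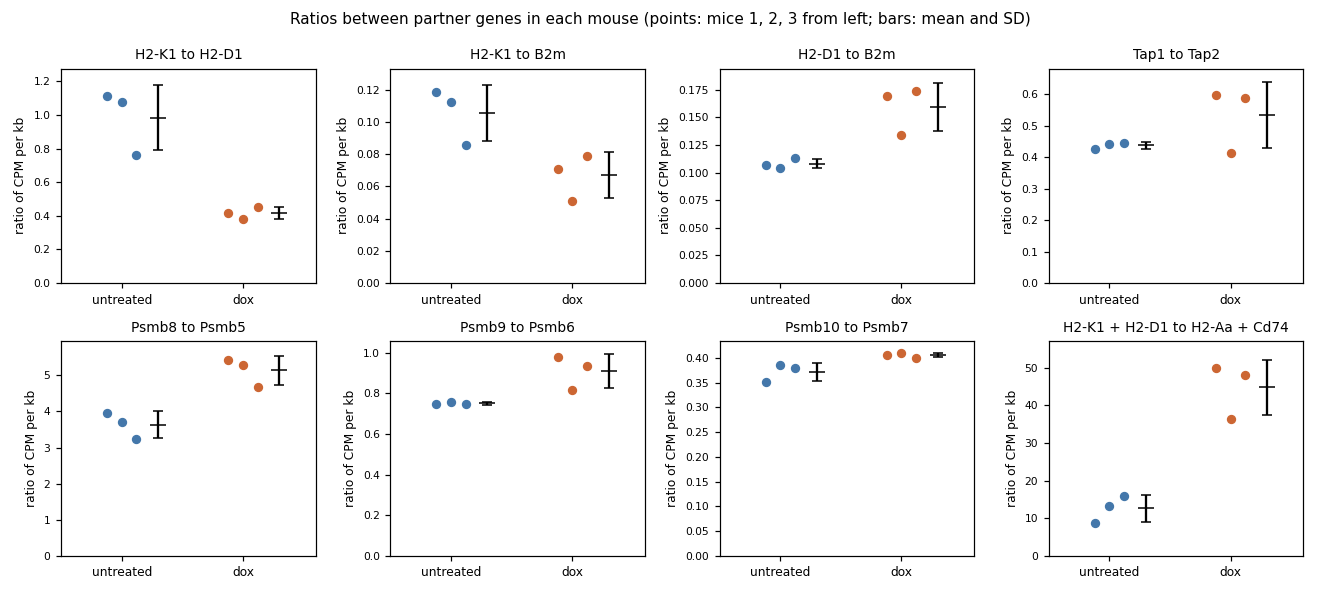
Ratio of partner genes in each mouse, each gene in CPM per kilobase of gene length (linear axes from 0), with the mean and SD of 3 mice. The groups separate for every ratio except Tap1 to Tap2, where Dox mouse 2 at 0.411 lies below the untreated mice.

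H2-Aa encodes the alpha chain of the class II molecule I-A (Entrez 14960, chromosome 17, 34282744 to 34287823). It measured 17.6, 9.01 and 6.29 CPM in the untreated and 1.15, 1.42 and 1.56 CPM in the Dox mice. All 3 Dox mice lay below the lowest untreated mouse, and the untreated mice themselves spread over a wide range with mouse 1 highest. The mean fell 7.96-fold, from 10.97 ± 5.91 to 1.38 ± 0.212 CPM (log2 -2.98 ± 0.40, edgeR adjusted p = 0.0011). The Dox values rest on 39 to 68 counts per mouse. In a bulk library, fewer cells of a type and less RNA per cell cannot be told apart.

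Cd74, the invariant chain that guards the class II groove (Entrez 16149), was low in both groups, at 1.74, 3.89 and 2.10 CPM in the untreated and 2.03, 2.82 and 1.73 CPM in the Dox mice. The groups overlapped and the log2 fold change of -0.23 ± 0.34 did not pass (edgeR adjusted p = 0.58). Per kilobase, H2-Aa exceeded Cd74 by ratios of 13.4, 3.07 and 3.97 in the untreated mice, and the ratios after Dox were 0.748, 0.667 and 1.20. The ratios did not overlap, and their difference was not tested.

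The whole class II list, with H2-Aa and Cd74 counted in it, moved both ways. Of 14 listed genes 13 were tested, of which 7 rose, 4 fell and 2 did not pass, with a median log2 fold change of 0.41. Over all tested genes 24.8% were higher and 25.2% lower. Among the antigen-binding chains, H2-Ab1, the beta partner of H2-Aa, fell from 37.8, 34.6 and 29.8 to 14.9, 20.6 and 22.3 CPM (log2 -0.82 ± 0.16, edgeR adjusted p = 0.0038), without overlap. The ratio of H2-Aa to H2-Ab1 per kilobase was 0.519, 0.290 and 0.236 in the untreated and 0.0862, 0.0770 and 0.0782 in the Dox mice, so that the alpha chain dropped further than its partner. H2-Eb2 fell from a range of 20.2 to 58.2 CPM in the untreated to 8.30 to 16.1 CPM in the Dox mice (log2 -1.82 ± 0.47, adjusted p = 0.025), a call lost without untreated mouse 1 or 2, without Dox mouse 1 or 2, under the block, and with no filter on low counts (adjusted p between 0.051 and 0.089). H2-Eb1 lay at 1.63 to 3.86 and 1.33 to 1.85 CPM (log2 -0.75 ± 0.32, adjusted p = 0.08), and passed without untreated mouse 3 (adjusted p = 0.013).

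The accessory genes of class II were mostly higher after Dox. H2-Ob, a chain of H2-O, the modulator of H2-DM, rose from a range of 0.235 to 0.599 CPM to 1.798 to 2.26 CPM (log2 2.42 ± 0.36, edgeR adjusted p = 0.001), and its partner H2-Oa from a range of 15.7 to 16.3 CPM to 18.6 to 22.6 CPM (log2 0.41 ± 0.11, adjusted p = 0.012). H2-DMb2 rose from 2 to 3 counts per mouse to 14 to 18 counts (log2 2.17 ± 0.41, adjusted p = 0.0028), so its fold rests on few reads. H2-DMb1 went from a range of 0.266 to 0.422 CPM to 0.676 to 0.782 CPM (log2 1.06 ± 0.30, adjusted p = 0.018), and H2-DMa from a range of 1.95 to 2.66 CPM to 3.09 to 6.19 CPM (log2 0.86 ± 0.30, adjusted p = 0.039). Both of the last calls were lost in part of the alternatives, H2-DMa without each untreated mouse and without Dox mouse 2 (log2 0.48), and H2-DMb1 without untreated mouse 1 or 3 and in DESeq2 (adjusted p = 0.10). The endosomal proteases Ctss and Lgmn rose from a range of 1.16 to 2.55 CPM to 5.29 to 7.13 CPM (log2 1.54 ± 0.29) and from a range of 7.04 to 8.73 CPM to 10.9 to 14.3 CPM (log2 0.75 ± 0.15), with edgeR adjusted p of 0.0029 and 0.0034. The thiol reductase Ifi30 fell, from a range of 18.4 to 26.2 CPM to 10.5 to 15.4 CPM (log2 -0.85 ± 0.18, adjusted p = 0.0056).

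Among the listed markers of macrophages and dendritic cells, most of those tested rose after Dox. The dendritic cell marker Itgax did not pass (log2 0.76 ± 0.48, edgeR adjusted p = 0.22). Of 15 listed markers 10 were tested, and 8 rose, 0 fell and 2 did not pass, beside 24.8% of all tested genes higher. Their summed level was 25.2 to 38.0 CPM in the untreated and 93.1 to 132 CPM in the Dox mice. Itgam rose by log2 2.16 ± 0.12 and C1qa by 2.09 ± 0.31 (edgeR adjusted p = 2.1e-05 and 0.0011), while Lyz2 was at 2.10 to 3.42 and 3.20 to 3.73 CPM and did not pass. None of the 15 was at 0 in all mice. The dendritic cell markers Clec9a, Xcr1 and Siglech were at or below 0.133, 0.382 and 0.0335 CPM and were not tested. The 8 that passed rose, as H2-DMa, H2-DMb1, H2-DMb2, H2-Oa, H2-Ob, Ctss and Lgmn did, and moved opposite to H2-Aa, H2-Ab1, H2-Eb2 and Ifi30; their part in either was not tested.

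Of 10 B-cell markers 4 were tested, 1 rose (Cd22, to 0.444 to 1.77 CPM), 0 fell and 3 did not pass. Over all tested genes 24.8% were higher and 25.2% lower. The count of 1 higher marker was 0 in run 1 alone, in run 2 alone and with a filter of over 1 CPM in 3 mice. In the 3 untreated mice Ms4a1 had 0 counts, Cd79a 6 to 10, Cd79b 3 to 11 and Cd22 4 to 8. The summed level of the 10 markers, nearly all from the immunoglobulin gene Ighm, was 208 to 355 CPM and 252 to 297 CPM. Their part in the class II values was not tested. Erythroid markers summed to 4.49 to 43.1 CPM in the untreated, highest in mouse 3, and to 62.1 to 77.0 CPM in the Dox mice, and their part in the results was not tested. The T-cell coreceptors Cd4 and Cd8a rose after Dox by log2 2.16 ± 0.26 and 2.02 ± 0.18 (edgeR adjusted p = 0.0012 and 0.00024). Of 11 T-cell markers 7 rose, 1 fell (Cd3g) and 3 did not pass, beside the same 24.8% higher and 25.2% lower.

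**Figure D4:**
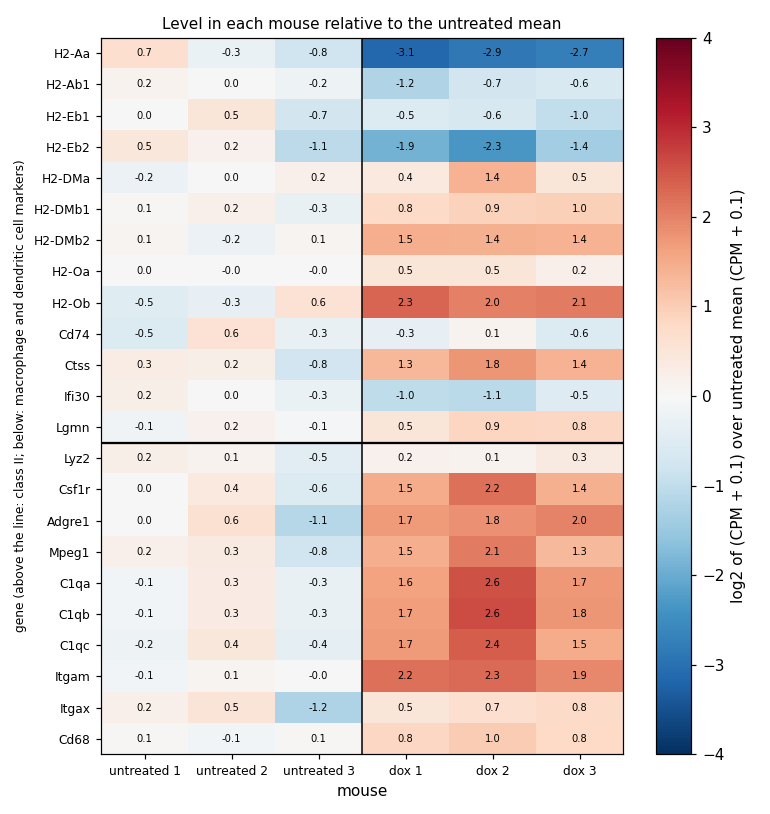
Heat map of each mouse's level relative to the untreated mean, as log2 of CPM plus 0.1 over the mean plus 0.1, for class II genes (above the line) and macrophage and dendritic cell markers (below it). H2-Aa is blue in all 3 Dox mice while most accessory genes and markers are red, and Cd74 is pale.

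Class I against class II was compared per kilobase of gene length. The sum of H2-K1 and H2-D1 over the sum of H2-Aa and Cd74 was 8.80, 13.3 and 15.9 in the untreated and 49.9, 36.3 and 48.1 in the Dox mice. The means were 12.7 ± 3.58 and 44.8 ± 7.36 (SD, n = 3), a difference of 1.85 on the log2 scale, between 1.61 and 2.03 when each mouse was left out in turn. No test was made of this score over chosen members. The denominator moved, from 17.7, 11.2 and 7.36 to 2.51, 3.32 and 2.68 CPM per kilobase, whereas the class I sum overlapped. The class II sum was mostly H2-Aa in the untreated mice, so that the ratio follows that gene. The sum leaves out the other class II chains. H2-Ab1 had means of 28.6 CPM per kilobase in the untreated and 16.1 in the Dox mice, above H2-Aa (10.3 and 1.29). H2-Eb2 had 12.4 and 3.52, and H2-Eb1 1.65 and 0.982.

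Ordered by mean CPM per kilobase, the untreated members ran B2m (654), Psmb8 (283), Psmb9 (120), Tap2 (74.0), H2-D1 (70.6), H2-K1 (69.9), Tap1 (32.4), H2-Aa (10.3), Cd74 (1.82) and Nlrc5 (0.810). The ranges of Tap2, H2-D1 and H2-K1 overlapped, so their order is not resolved, and all other neighbours were apart. After Dox the order was B2m (560), Psmb8 (306), Psmb9 (115), H2-D1 (88.1), Tap2 (85.0), Tap1 (44.0), H2-K1 (36.8), Nlrc5 (3.37), Cd74 (1.55) and H2-Aa (1.29). H2-D1 overlapped Tap2, and Cd74 overlapped H2-Aa. H2-K1 thus passed from above Tap1 to below it, and Nlrc5 from below both class II genes to above them. Dox mouse 2 was the extreme of its group for B2m, Tap2, Psmb8 and Cd74 (highest) and for H2-K1, H2-D1, Tap1, Nlrc5 and Psmb9 (lowest). The order rests on 1 annotated length per gene.

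H2-K1, H2-D1, Tap1, Tap2, Psmb8, Psmb9 and H2-Aa lie in the MHC interval of chromosome 17 that runs from H2-K1 to H2-T3. Of 115 tested genes in the interval 28 were higher and 25 lower (46.1%), with a median log2 fold change of 0.10. For the 88 that belong to no list used here, 18 were higher and 18 lower (40.9%), with a median of 0.07. Both shares are near the 50.0% of all tested genes. Genes that rose and genes that fell stood beside each other, as H2-Ob (2.42) and the class II chains H2-Ab1 and H2-Aa (-0.82 and -2.98) did.

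**Figure D5:**
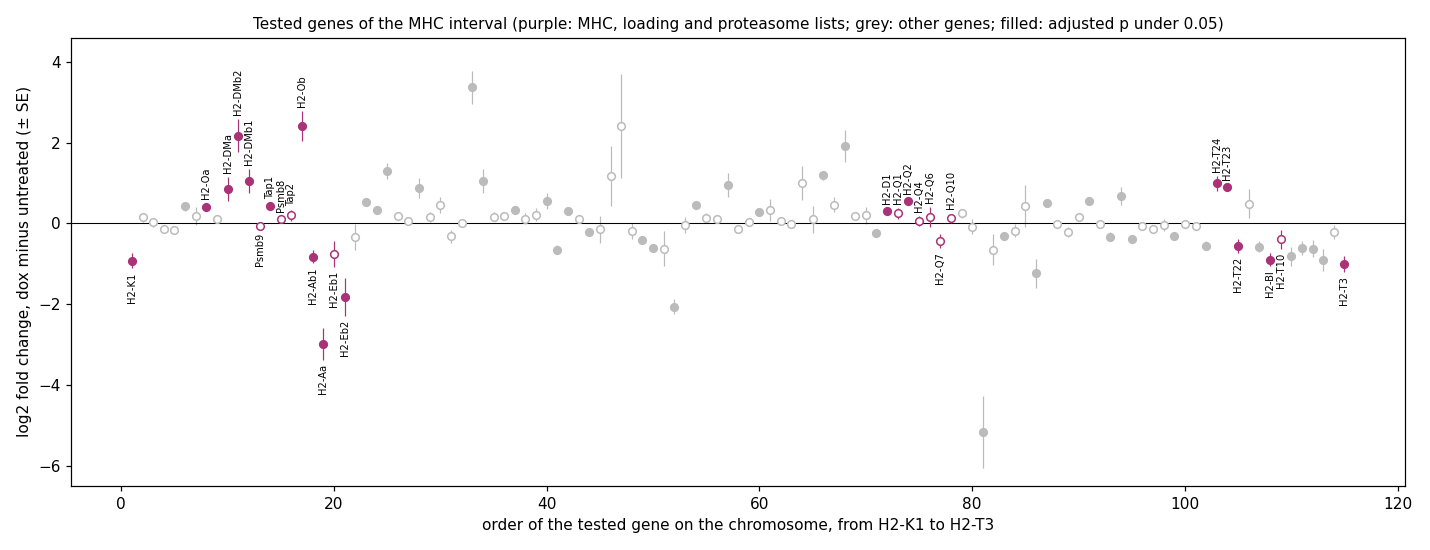
Log2 fold change (Dox minus untreated, with SE) of the 115 tested genes of the MHC interval in chromosome order from H2-K1 to H2-T3, genes of the lists in purple and other genes in grey, filled where the edgeR adjusted p was under 0.05. Higher and lower genes are interspersed, and the lowest grey point is 2300002M23Rik at -5.16.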

How the data were processed

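Raw counts for each Entrez gene, with a gene length, were deposited by the authors per library and as a whole-series table, which were equal in 12 of 12 libraries. The build was mm10 and the tools CASAVA 1.8.1 and featureCounts, per the submitters' processing notes. Not given in the sources used here are the aligner, annotation, strand setting and handling of multiply matching reads, so near-identical, overlapping or antisense genes can share or lose reads. No column of per-sample values was left unmapped.

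Both runs of a mouse were added up (29904744 to 44949303 per mouse). The labels number the mice without naming litters or transplants. Groups were compared with edgeR 4.0.16 in R 4.3.3 (filterByExpr, TMM factors, robust quasi-likelihood test, no block, Benjamini-Hochberg over 13134 genes, threshold 0.05). SE is the log2 fold change over the square root of F. Adjusted p values without another tool named are from this edgeR fit. Symbols matched 25275 of 27179 identifiers (93.0%) in RefSeq and GENCODE tables. CPM used TMM-scaled totals, and levels between genes were set side by side per kilobase. Intervals and floors of 3 counts cover counting error only. The scripts were checked on simulated data.

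The members, gene lists and tests were chosen with earlier results of these data known. Named were all members, up to 4 genes per list with the smallest p, every class II gene, markers above 1 CPM in any mouse, and Ikzf1. Other genes (those of the heavy chain list that fell, Rfxank, Rfxap, Nfya, Nfyb, Irf1, Irf9, Ciita, Calr, Pdia3, Erap1, H2-Q1, H2-Q10, H2-T10, Psmb11, and B-cell or dendritic markers at or under 1 CPM) were named after their values were seen. Single values of 2 listed genes are not reported here. Alternatives were other size factors, filters, DESeq2 1.42.0, voom in limma 3.58.1, single runs, a block on mouse number, and mice left out. Promoter windows and transcripts came from RefSeq (GRCm38.p6) and GENCODE M21.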

Additional observations from a re-analysis of the deposited data

How the results depend on the processing

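The count of members that rose was 3 under every alternative run, and of those that fell 2, or 3 (B2m added) without Dox mouse 2 and without both Dox mouse 2 and untreated mouse 3. Over the 10 members and 16 alternatives, 158 of 160 comparisons kept their side of the threshold, and the other 2 are those of B2m. Of the 158, 156 also kept their direction, and the 2 that did not, with no call on either side, were Cd74 without untreated mouse 2 (0.19 in place of -0.23) and Psmb9 without Dox mouse 2 (0.01 in place of -0.05). Of 801 comparisons for the 51 other named genes, 758 kept their side (2 of them, both of Cd79b, with another sign and no call), 31 lost and 12 gained the call, and no called value reversed. Genes passing over the whole table numbered 6571, and 4869 to 6281 when each mouse was left out in turn. Mouse numbers did not pair the groups: deviations of same-numbered mice correlated at 0.156, -0.012 and -0.103 for mice 1, 2 and 3. With the replicate block, 6259 genes passed, and 3 members were higher and 2 lower. Leaving out each mouse, the log2 difference of the ratios was 1.61 to 2.03 for class I over class II, -0.81 to -0.49 for H2-K1 to B2m, 0.48 to 0.67 for H2-D1 to B2m, -1.39 to -1.12 for H2-K1 to H2-D1, 0.17 to 0.44 for Tap1 to Tap2, 0.42 to 0.57 for Psmb8 to Psmb5, 0.22 to 0.35 for Psmb9 to Psmb6 and 0.085 to 0.15 for Psmb10 to Psmb7. Depth limits Ciita, H2-DMb2 and H2-DMb1, whose levels stand below 1 CPM in all mice.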

Other observations

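Genes of the MHC interval outside the antigen presentation lists also differed between the groups, and a few with large differences, chosen after their values were seen, are given here. Ltb, the lymphotoxin beta subunit, rose from 10.8, 11.7 and 12.6 CPM in the untreated to 30.1, 25.2 and 25.5 CPM in the Dox mice (log2 1.20 ± 0.11, edgeR adjusted p = 0.00013), without overlap. C4b, complement component C4, rose from 0.201, 0.241 and 0.133 to 1.24, 2.73 and 2.12 CPM (log2 3.38 ± 0.41, edgeR adjusted p = 0.0004). The C1q chains, counted among the macrophage markers, rose in the same mice, and whether these changes share a source was not tested. The transcript 2300002M23Rik stood at 0.436, 1.08 and 2.33 CPM in the untreated and at 0, 0.0222 and 0.069 CPM in the Dox mice, which are at or under the limit that a count of 0 allows (edgeR adjusted p = 0.0026).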
